A study of Mus musculus with 25 samples.

Results

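Whole-lung RNA of mice that received SEW-2871 after thoracic irradiation was compared with that of mice irradiated without it, over all genes of an Affymetrix mouse array. The members were chosen by sample title: 3 arrays titled as radiation with SEW and 3 titled as radiation alone, 6 of the 25 arrays of the series. All mice were female, wild-type C57BL/6J, 14 to 17 weeks old and 20 to 25 g in weight. The radiation group received a single dose of 25 Gy to the thorax and no compound, and the radiation+SEW group received the same dose and SEW-2871 at 0.1 mg/kg by intraperitoneal injection 2 times a week. Other groups served as references: a control group given phosphate-buffered saline (n = 4), a SEW group given the same course of SEW-2871 without radiation (n = 3), and groups given the same radiation with fTyS, which is (S)-FTY-phosphonate, or with FTY, which is FTY720 (n = 3 each, both compounds at 0.1 mg/kg on the same schedule). The labels describe the replicates as separate mice. The time from irradiation to collection of the lungs is not given in the sources used here, so no result can be placed in an early or a late phase of radiation injury.

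Sphingosine 1-phosphate is a lipid messenger that is made by sphingosine kinases, exported by carriers such as Spns2 and Mfsd2b, broken down by a lyase and by phosphatases, and read by a family of G protein-coupled receptors. In the lung its receptor S1pr1, abundant on endothelium, tightens the barrier between blood and air space. The same receptor on lymphocytes lets them leave lymphoid organs. SEW-2871 activates S1pr1 selectively and is not built like sphingosine. FTY720 (fingolimod) is a sphingosine analogue; once the body has added a phosphate to it, it binds several of the receptors, and (S)-FTY-phosphonate carries a phosphonate in place of that phosphate. Radiation injury of the lung includes leakage of the barrier, entry of neutrophils and monocytes, and later deposition of matrix.

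All levels below are log2(signal + 16) of the deposited array signals, so a difference of 1 is a 2-fold change on that scale and is compressed for dim genes. Values after ± are standard errors (SE) from a limma fit of 8 group means over the 25 arrays. A gene was called when its Benjamini-Hochberg adjusted p over 12937 genes was at most 0.05. The array medians of the signal lay between 118.33 and 129.58, and precision is limited by how many arrays there are: over genes, the 95% interval of a difference reached a median of 0.22 to either side. Alveolar genes were at high levels in both groups, as the tissue label asks. The mean level of 19 surfactant and alveolar type 2 genes was 11.64 to 11.68 in the radiation arrays and 11.65 to 11.78 in the radiation+SEW arrays, and that of 17 alveolar type 1 genes was 12.00 to 12.05 and 11.94 to 12.05.

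Several arrays also carried RNA of other tissues, and these arrays were not the same in the groups compared. Skeletal muscle genes averaged 6.74, 8.83 and 7.07 in radiation replicates 1 to 3 and 11.11, 8.42 and 7.28 in radiation+SEW replicates 1 to 3. The list of ciliated and basal airway genes averaged 8.62 to 8.75 with radiation and 10.13, 9.44 and 8.97 with added SEW-2871. Keratin 13 (Krt13), a keratin of stratified epithelium that lung parenchyma lacks, read 12.21, 7.80 and 5.84 in the radiation+SEW arrays and 4.97 to 5.08 in the radiation arrays. White and brown fat genes averaged 8.63, 9.70 and 9.15 with radiation and 9.63, 11.003 and 8.98 with added SEW-2871. No member of the muscle, fat or airway basal lists was called. B cell genes were low in radiation replicate 1, at a mean of 7.05 against 8.20 and 8.54 in the other 2 radiation arrays and 8.01 to 8.41 in the radiation+SEW arrays. Among the references, the array labelled control replicate 4 had a mean of 9.97 over 28 p53 target genes, within the range of the irradiated arrays (9.88 to 10.02 over the radiation and radiation+SEW arrays), while the other control arrays had 9.40 to 9.48. Tests against the control arrays are therefore given in the text with and without that array.

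**Figure D1:**
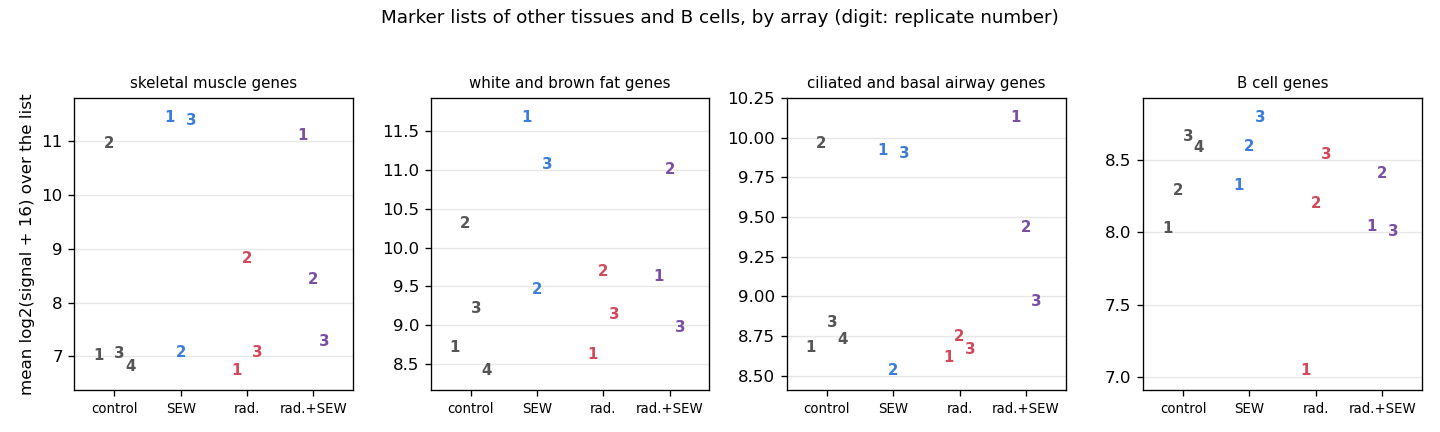
Mean log2(signal + 16) per array over the tested genes of 4 lists (skeletal muscle, white and brown fat, ciliated and basal airway, B cell), with the digit giving the replicate number and the columns the control, SEW, radiation and radiation+SEW groups. Radiation+SEW replicate 1 had a skeletal muscle mean of 11.11 and radiation replicate 1 a B cell mean of 7.05.

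In radiation+SEW lungs, many genes of neutrophils and of myeloid receptors were lower than with radiation alone, and so were some monocyte genes. A few genes each of the airway secretion, matrix, mesothelium and cholesterol lists were higher. Without radiation replicate 1, 12 of the 20 largest decreases and 3 of the 20 largest increases stayed called. The arrays also differed in RNA of other tissues, and its part was not tested beyond fits with tissue means as covariates. Of 12937 genes, 321 were called (2.48%), 178 of them higher (1.38%) and 143 lower (1.11%). The large changes were nearly all decreases: 40 of the 44 called genes beyond 2-fold were lower. Without adjustment, 2236 genes had a p under 0.05, and the 3 and 3 arrays did not overlap for 3509 genes (27.1%), higher for 2296 (17.7%) and lower for 1213 (9.38%). The balance of higher and lower calls rests on the scaling of the arrays: quantile normalization gave 106 higher and 182 lower, and centring each array on its median gave 83 higher and 195 lower. The number of calls also rests on single arrays, with 49 calls without radiation replicate 1, 112 without radiation replicate 2, and 110, 114 and 82 without radiation+SEW replicates 1, 2 and 3.

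The decreases centred on neutrophils. Csf3r, through which granulocyte colony-stimulating factor acts, read 11.12, 10.46 and 9.83 in the radiation arrays and 7.74, 6.24 and 7.93 in the radiation+SEW arrays. Its difference was -3.16 ± 0.49 (adjusted p = 0.00339). Stfa2l1, a stefin A-like protease inhibitor gene of neutrophils, read 11.53, 10.07 and 9.01 with radiation and 6.84, 6.40 and 7.64 with added SEW-2871, a difference of -3.24 ± 0.49 (adjusted p = 0.00339). For both genes the highest radiation+SEW array lay more than a unit below the lowest radiation array. S100a8 and S100a9 encode the subunits of calprotectin, the most abundant cytosolic protein pair of neutrophils. S100a9 read 13.12, 12.99 and 12.25 with radiation and 10.13, 8.76 and 11.35 with added SEW-2871 (-2.71 ± 0.55, adjusted p = 0.014). S100a8 read 13.29, 13.21 and 12.64 against 10.95, 9.74 and 11.97 (-2.16 ± 0.47, adjusted p = 0.0206). Radiation+SEW replicate 3 kept the highest calprotectin levels of its group, and still lay below every radiation array. In bulk lung RNA, fewer cells of a type and less RNA per cell cannot be told apart.

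**Figure D2:**
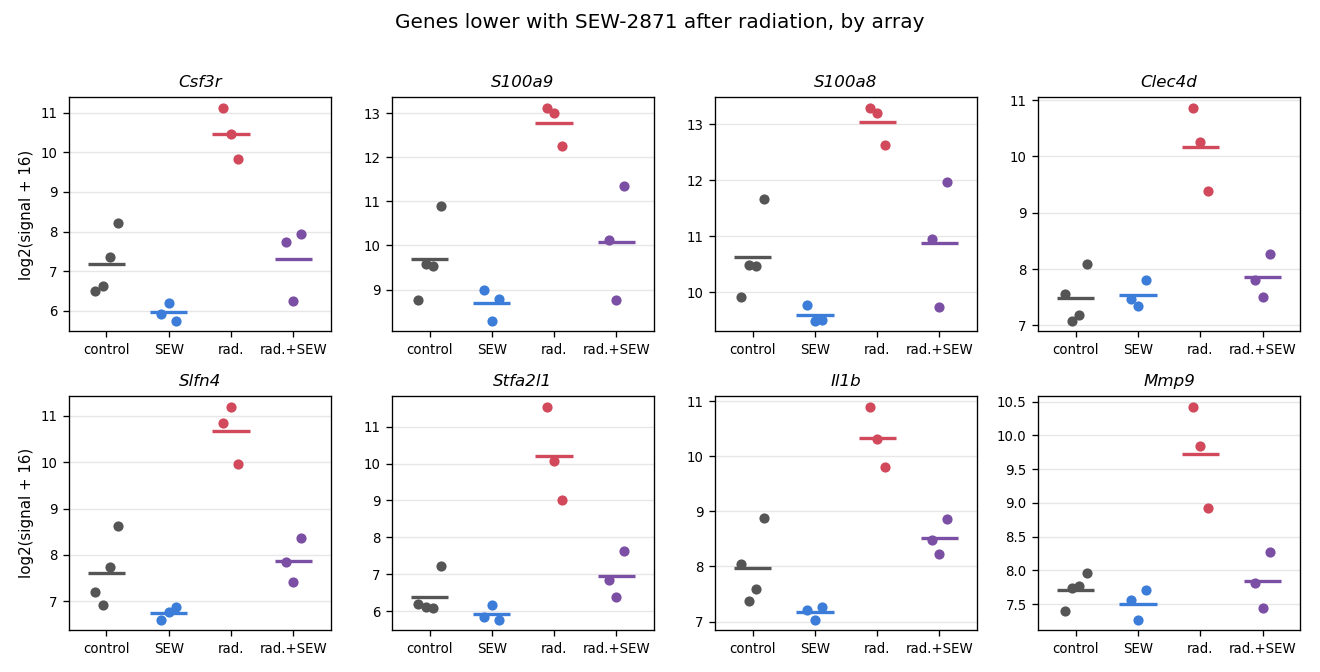
Levels of 8 genes as log2(signal + 16) in each array of the control, SEW, radiation and radiation+SEW groups; points are arrays and lines are group means. For each of the 8 genes all radiation arrays lay above all radiation+SEW arrays, as in Csf3r (lowest radiation array 9.83, highest radiation+SEW array 7.93).

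Of the 15 tested genes of the neutrophil granule and receptor list, 8 fell and none rose among those called, against 1.11% of all genes called lower; the list's median difference was -1.24, beside 0.03 over all genes tested. In 11 of the 15 the arrays did not overlap on the lower side. Besides those already named, Mmp9, the gelatinase stored in neutrophil granules, read 10.42, 9.84 and 8.93 with radiation and 7.81, 7.44 and 8.28 with added SEW-2871 (-1.89 ± 0.28, adjusted p = 0.00339). Itgam, the alpha chain of the Mac-1 integrin shared by neutrophils and monocytes, fell by 1.23 ± 0.21 (adjusted p = 0.00455). The list was not uniform. Cd177, a neutrophil surface protein that takes part in transmigration, read 9.15, 8.55 and 8.11 with radiation and 8.68, 8.89 and 8.92 with added SEW-2871, a difference of 0.23 ± 0.36 (adjusted p = 0.783). Lcn2 (lipocalin 2) differed by 0.23 ± 0.28 and Ltf (lactoferrin) by 1.77 ± 0.90 (adjusted p = 0.322), and airway glands and epithelium also make both; these 2 genes were picked out after their values were seen. Leaving out 1 of the 6 arrays at a time left 4 to 9 members of the list called lower.

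Receptors and adaptors of myeloid cells made up the most complete group. All 25 tested members of the list of myeloid lectins, paired immunoglobulin-like receptors and Fc receptors had a lower mean with added SEW-2871, 24 of them without overlap of the arrays (9.38% of all genes lay lower without overlap), and 15 were called, all lower; the median was -0.71. Clec4d, a C-type lectin that senses fungal and mycobacterial glycolipids, read 10.86, 10.26 and 9.39 with radiation and 7.81, 7.51 and 8.27 with added SEW-2871 (-2.30 ± 0.35, adjusted p = 0.00339). Clec4e, known as Mincle, its partner in that recognition, read 8.85, 8.68 and 7.79 against 6.20, 6.20 and 6.77 (-2.05 ± 0.39, adjusted p = 0.0114). Its mean over all arrays, 6.51, was barely above the filter at 6.49, so Clec4e was tested only because its radiation arrays were high. Its place among the lower members is therefore no separate support. The inhibitory receptors fell as well. Pirb, an inhibitory paired receptor that binds MHC class I, read 10.03, 9.36 and 8.87 against 7.80, 7.86 and 7.91 (-1.56 ± 0.22, adjusted p = 0.00288), and Cd300lf, which recognises lipids on dying cells, read 10.29, 10.02 and 9.46 against 7.87, 7.96 and 8.55 (-1.79 ± 0.26, adjusted p = 0.00288). The 3 radiation+SEW arrays of Pirb lay close together, whereas the radiation arrays spanned more than a unit. Igsf6 fell by 1.76 ± 0.27, Sirpb1a by 1.73 ± 0.34 and Cd300lb by 1.16 ± 0.23. Without radiation replicate 1 the count of called members was 4, and without each of the other 5 arrays it was between 6 and 16.

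The starts of some of the neutrophil and myeloid genes that fell hold short motifs known from myeloid promoters. The windows below, 200 bases before the first listed start of S100a8, S100a9, Stfa2l1 and Clec4d in RefSeq (build GRCm38.p6), were chosen as examples that hold GGAAGT; capitals mark GGAAGT, a core sequence that ETS-family factors such as PU.1 can bind, its reverse complement ACTTCC, and TATAAA, the core of a TATA box (both strands searched).
S100a8 (chr3:90668871-90669070, plus strand): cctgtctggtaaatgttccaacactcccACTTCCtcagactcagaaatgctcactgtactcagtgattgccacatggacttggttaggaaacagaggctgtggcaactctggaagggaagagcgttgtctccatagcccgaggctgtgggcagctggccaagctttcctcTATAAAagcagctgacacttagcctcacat
S100a9 (chr3:90695722-90695921, minus strand): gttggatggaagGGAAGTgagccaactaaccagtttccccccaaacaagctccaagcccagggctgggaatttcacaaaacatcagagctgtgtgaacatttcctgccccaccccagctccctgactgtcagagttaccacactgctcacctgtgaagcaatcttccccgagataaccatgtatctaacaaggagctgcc
Stfa2l1 (chr16:36156611-36156810, plus strand): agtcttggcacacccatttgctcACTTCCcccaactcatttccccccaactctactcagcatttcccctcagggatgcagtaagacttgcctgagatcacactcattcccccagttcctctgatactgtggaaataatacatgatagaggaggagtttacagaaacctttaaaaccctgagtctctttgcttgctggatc
Clec4d (chr6:123261907-123262106, plus strand): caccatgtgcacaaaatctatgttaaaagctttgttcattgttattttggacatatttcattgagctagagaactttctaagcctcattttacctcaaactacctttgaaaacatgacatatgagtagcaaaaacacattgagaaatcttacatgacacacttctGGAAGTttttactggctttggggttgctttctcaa
Each of the 4 windows holds GGAAGT 1 time and that of S100a8 also holds TATAAA. Among the 20 genes with the largest decrease, 19 had a window, of which 11 held GGAAGT and 8 did not, as did 6 of 13 windows of the neutrophil list and 12 of 20 of the myeloid receptor list; 1 of 12 windows of the genes with the largest increase held it. Over all 32851 windows of that length 16.7% hold GGAAGT and 9.96% hold TATAAA. A match is a run of letters, and no factor was measured here.

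Inflammatory mediators were lower in part. Il1b, the cytokine interleukin-1 beta, read 10.89, 10.31 and 9.80 with radiation and 8.48, 8.23 and 8.86 with added SEW-2871 (-1.81 ± 0.35, adjusted p = 0.0124). Nlrp3, the sensor of the inflammasome that activates it, read 8.83, 8.61 and 8.09 against 7.51, 7.57 and 7.73 (-0.90 ± 0.18, adjusted p = 0.0124). Il1f9, another member of the interleukin-1 family, and Gsdmd, the pore-forming protein of pyroptosis, fell by 0.85 ± 0.19 and 0.36 ± 0.09. Il33, an alarmin of the same family that is stored in alveolar type 2 and stromal nuclei, moved the other way: it read 10.83, 10.64 and 10.92 with radiation and 11.60, 11.28 and 11.43 with added SEW-2871 (0.64 ± 0.13, adjusted p = 0.014). In all, 4 of 15 tested genes of the interleukin-1 and inflammasome list were called lower and 1 higher, with a median of -0.23. Of all genes, 1.11% were called lower and 1.38% higher. No chemokine was called among 22 tested, at a median of -0.01, and the member with the largest difference was the platelet chemokine Ppbp at -1.20 ± 0.41 (adjusted p = 0.125).

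Among monocyte and interstitial macrophage genes, 4 of 21 were called lower (1.11% of all genes were) and the median was -0.18. The 4 include Itgam, already counted in the neutrophil list. The list was mixed: 8 members had a positive difference, and without overlap 7 lay lower and 4 higher (9.38% and 17.7% of all genes did). Ccr2, the receptor that draws monocytes out of the marrow, read 10.93, 10.54 and 9.86 with radiation and 9.18, 9.68 and 9.43 with added SEW-2871 (-1.01 ± 0.22, adjusted p = 0.0186). Ms4a6c fell by 1.15 ± 0.23 and Plac8 by 0.57 ± 0.14, both genes of circulating monocytes. Slfn4, a Schlafen family gene of immature myeloid cells, read 10.85, 11.19 and 9.96 against 7.85, 7.42 and 8.36 (-2.79 ± 0.46, adjusted p = 0.00423), and Slfn2 fell by 0.63 ± 0.14, while the other 3 tested Schlafen genes were not called. Of 11 cytokine and adhesion genes 2 were called, both leukocyte adhesion molecules. Selplg, the ligand of P-selectin that tethers rolling leukocytes, read 10.33, 10.01 and 9.62 against 8.80, 8.88 and 9.01 (-1.09 ± 0.18, adjusted p = 0.00423), and Itgb2, the beta chain of the leukocyte integrins, fell by 0.58 ± 0.13. Alox5ap, which presents arachidonic acid to the leukotriene-making lipoxygenase, read 11.85, 11.45 and 10.94 against 10.29, 10.35 and 10.44 (-1.05 ± 0.18, adjusted p = 0.00505). The tissue-resident and lymphoid lists did not show such calls. No gene was called among 17 alveolar macrophage genes (median -0.10), 13 dendritic cell and MHC class II genes (0.11), 17 B cell genes (0.27), 10 plasma cell and immunoglobulin genes (0.00), 14 T cell genes (-0.17) or 13 natural killer and cytotoxic genes (-0.13). Platelet genes were lower on average: the median over 12 was -0.75 and 9 lay lower without overlap (9.38% of all genes did). Of the 12, 1 was called, Rgs18 (-0.95 ± 0.24, adjusted p = 0.0382).

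More of the large decreases than of the large increases stayed called when single arrays were left out. Of 72 called genes that are named by the rule, 18 stayed called without each of the 6 arrays in turn. Under every alternative that tested them 9 stayed called: Csf3r, Slfn4, Clec4d, Cd300lf, Fgr, Cd244a, Itgam, Selplg and Pmepa1. All but Pmepa1 are leukocyte genes that fell, among them Fgr, a Src-family kinase of myeloid cells (-1.41 ± 0.24), and Cd244a, a receptor of natural killer and myeloid cells (-1.34 ± 0.21). Of the 20 largest decreases 12 stayed called without radiation replicate 1, the fewest for any of the 6 arrays; of the 20 largest increases 3 did. Adding the muscle, fat and basal airway means as covariates, a fit chosen after the data were seen, kept 18 of the 20 largest decreases and 15 of the 20 largest increases called.

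Many of these leukocyte genes were also higher with radiation alone than in control. In the radiation group against control, Csf3r was higher by 3.29 ± 0.46 and Clec4d by 2.69 ± 0.33, and 10 of 15 neutrophil list members and 21 of 25 myeloid receptor list members were called higher, against 2.29% of all genes. Without control replicate 4 the differences were 3.64 ± 0.45 and 2.90 ± 0.33, and 12 and 22 members were called higher. Both comparisons contain the 3 radiation arrays, so their values are not independent of each other. The control and radiation+SEW groups have no array in common.

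Against control, the number of genes called in the radiation+SEW lungs depended on single arrays. In all 30 of 12937 genes were called (0.232%), 12 higher (0.0928%) and 18 lower (0.139%), while 2169 had an unadjusted p under 0.05. Without the array labelled control replicate 4, 703 genes were called (5.43%), 325 higher and 378 lower, including all 30. Leaving out control replicates 1 to 3 in turn gave 16, 1 and 0 calls, and radiation+SEW replicates 1 to 3 gave 3, 0 and 0. The calls against control named below therefore also rest on single arrays. None of the 20 genes with the largest decrease was called with all control arrays. Without that array 1 of them was: Wfdc17, a small secreted protein gene of myeloid cells, was higher than control by 1.09 ± 0.30 (adjusted p = 0.0383), beside 0.89 ± 0.29 with it (adjusted p = 0.124). Csf3r differed from control by 0.13 ± 0.46 (adjusted p = 0.916), and by 0.47 ± 0.45 without that array. Clec4d differed by 0.39 ± 0.33 (adjusted p = 0.569), and by 0.59 ± 0.33 without it (adjusted p = 0.337). S100a9 read 8.76, 9.58, 9.54 and 10.89 in the control arrays and 10.13, 8.76 and 11.35 in the radiation+SEW arrays. The groups overlapped, but radiation+SEW replicates 1 and 3 lay above control replicates 1 to 3. The difference was 0.39 ± 0.51 (adjusted p = 0.73), and 0.79 ± 0.50 without control replicate 4 (adjusted p = 0.403). Over the neutrophil list the median difference from control was 0.38 with 1 gene called higher, and 0.47 with 2 called higher without control replicate 4. The corresponding medians of the myeloid receptor list were 0.24 with none called and 0.31 with 1 called higher. A difference that misses the threshold does not show that levels returned to those of control.

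The neutrophil gene that did differ from control was Cd177, which read 6.27, 6.63, 6.75 and 8.09 in the control arrays against 8.68 to 8.92 with radiation and SEW-2871, a difference of 1.89 ± 0.33 (adjusted p = 0.0297), and of 2.28 ± 0.27 without control replicate 4. It was also higher with radiation alone, by 1.67 ± 0.33 (adjusted p = 0.0058), and by 2.05 ± 0.27 without that array. Aen, a nuclease induced by p53, was at 9.46 to 9.57 in the radiation+SEW arrays and at 8.52, 8.54, 8.47 and 9.32 in the control arrays (0.82 ± 0.15, adjusted p = 0.034, and 1.02 ± 0.10 without control replicate 4). Muc4, a membrane mucin of airway epithelium, was at 10.50 to 10.69 against 9.39 to 10.30 (0.78 ± 0.15, adjusted p = 0.0365, and 0.95 ± 0.13 without it). Other genes called higher were Cxcl3 (a neutrophil-attracting chemokine, 0.76 ± 0.16), Trpv4 (a mechanosensitive calcium channel of endothelium and epithelium, 0.67 ± 0.10), Hes6 (0.60 ± 0.12) and Cd34 (0.51 ± 0.10). Without control replicate 4 their differences were 0.80, 0.69, 0.71 and 0.63. The means of Cxcl3 and Trpv4 over all arrays, both 6.50, were barely above the filter, and their high radiation+SEW arrays raised them. The calls of Cxcl3 and Trpv4 are therefore no separate support. Lower were Aox3, an aldehyde oxidase, at 9.65 to 9.89 against 10.10 to 11.29 (-1.05 ± 0.19, adjusted p = 0.034), the claudin Cldn10 (-0.65 ± 0.13), and the splicing kinases Clk1 (-0.59 ± 0.09) and Clk4 (-0.52 ± 0.09). Without control replicate 4 these were -1.29 for Aox3, -0.68 for Cldn10, -0.67 for Clk1 and -0.58 for Clk4. Clk1 also fell against radiation alone: it read 11.41, 11.55 and 11.35 with radiation and 11.04, 10.99 and 10.68 with added SEW-2871 (-0.54 ± 0.10, adjusted p = 0.00928), and radiation differed from control by -0.05 ± 0.09, or by -0.13 ± 0.09 without control replicate 4.

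The p53 targets stayed at the irradiated level. Their mean was 9.88 to 9.94 in the radiation arrays and 9.93 to 10.02 in the radiation+SEW arrays, and none of 28 was called between the groups (median 0.09). Psrc1, a p53-induced mitotic regulator, read 8.41, 8.52 and 8.60 with radiation and 8.62, 8.63 and 8.81 with added SEW-2871 (0.17 ± 0.43, adjusted p = 0.867). Eda2r, a p53-induced receptor of the tumour necrosis factor family, read 8.60, 8.60 and 8.84 against 9.04, 8.97 and 8.83 (0.27 ± 0.37, adjusted p = 0.748). With SEW-2871 and no radiation the same genes read 6.50 to 6.70 and 6.62 to 7.09, so both were among the largest differences between the radiation+SEW and SEW groups (2.12 ± 0.43 and 2.05 ± 0.37). That comparison had 2295 called genes (17.7%), 1788 of them higher (13.8%), among which were 12 of the 28 p53 targets.

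The increases with SEW-2871 were led by genes of airway secretory cells. Gp2, a glycoprotein of secretory granules that binds bacterial pili, read 6.08, 6.28 and 6.33 in the radiation arrays and 8.40, 8.79 and 8.13 in the radiation+SEW arrays (2.21 ± 0.46, adjusted p = 0.0165). Agr2, a disulfide isomerase needed to fold mucins, read 5.75, 5.83 and 5.76 against 8.35, 8.60 and 7.32 (2.32 ± 0.60, adjusted p = 0.0451). The groups are separated by more than a unit for both genes. Of 24 tested genes of the airway secretory list Gp2 and Agr2 were the 2 called (1.38% of all genes were called higher). In this list 23 had a positive difference, 18 lay higher without overlap (17.7% of all genes did) and the median was 0.71. The 23 include Clca1 (1.84), whose mean over all arrays, 6.50, was barely above the filter, so it is no separate support. The list mean was 9.49 to 9.73 with radiation and 10.24 to 10.67 with added SEW-2871. Radiation+SEW replicate 2 was the highest and replicate 3 the lowest, which is also the order of the fat and heart muscle means (9.63, 11.003 and 8.98, and 10.93, 11.41 and 9.87 in replicates 1 to 3), while muscle and basal airway means were highest in replicate 1. The control arrays, at 9.70 to 10.40, bridged the groups, and control replicate 2, which carried muscle and keratin RNA, was the highest of them. Without single arrays 0 or 1 of the list was called. The part of larger airways or other tissue in these samples was not tested beyond the covariate fits.

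**Figure D3:**
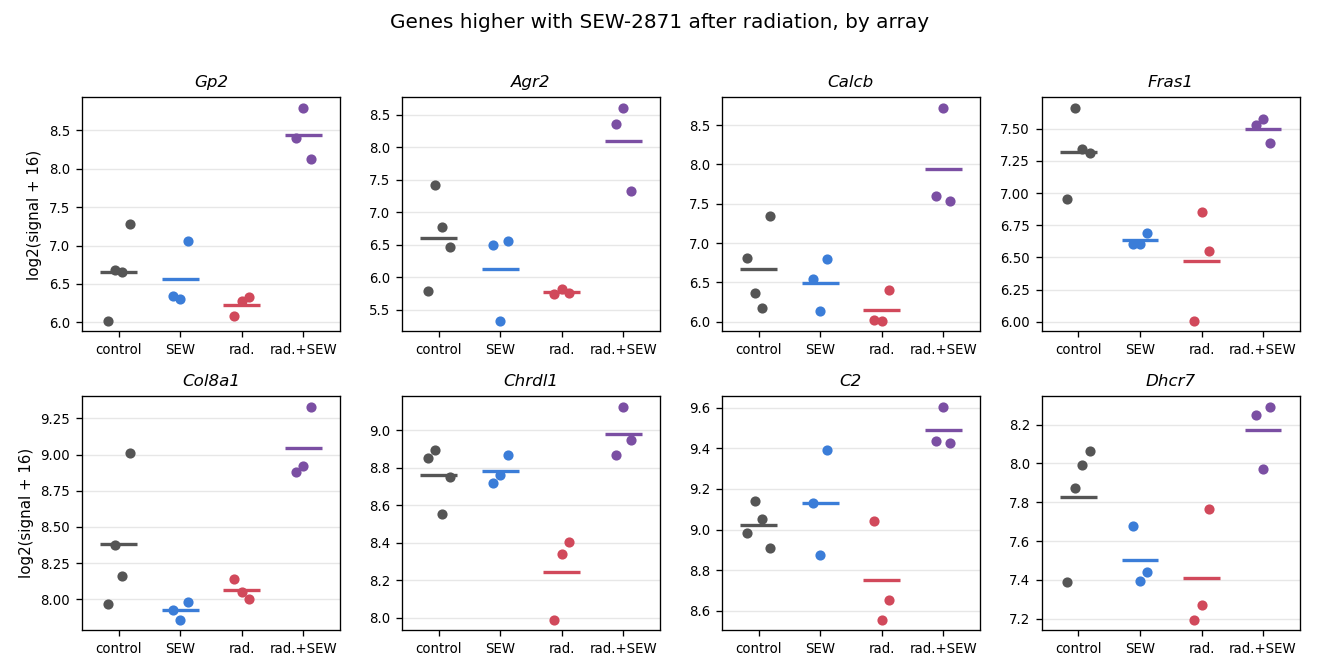
Levels of 8 genes as log2(signal + 16) in each array of the control, SEW, radiation and radiation+SEW groups; points are arrays and lines are group means. The radiation+SEW arrays lay above all radiation arrays for each gene, as in Gp2 (highest radiation array 6.33, lowest radiation+SEW array 8.13).

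Neural and matrix genes were among the increases. Calcb, which encodes the beta form of calcitonin gene-related peptide made by sensory nerves and neuroendocrine cells, read 6.02, 6.01 and 6.40 with radiation and 7.59, 8.72 and 7.53 with added SEW-2871 (1.81 ± 0.35, adjusted p = 0.012). Gap43, a growth-cone protein also found in activated stromal cells, read 7.93, 8.08 and 8.08 against 8.89, 8.82 and 9.12 (0.91 ± 0.23, adjusted p = 0.0382). Of 11 neuroendocrine and nerve genes these 2 were called (1.38% of all genes were called higher). Gap43 lost its call under quantile normalization, under median centring and when any 1 of the 6 arrays was left out. In the collagen and structural matrix list 3 of 37 genes were called, all higher (1.38% of all genes were). Of the 37, 32 had a positive difference and the median was 0.26. Col8a1, a short-chain collagen of vessel walls and injured tissue, read 8.14, 8.05 and 8.0001 against 8.88, 8.92 and 9.33 (0.98 ± 0.19, adjusted p = 0.0124). Fras1, a basement-membrane protein of epithelial sheets, read 6.01, 6.85 and 6.55 against 7.53, 7.58 and 7.39 (1.03 ± 0.20, adjusted p = 0.012), and Col6a2 rose by 0.54 ± 0.13. These levels were not alike against control: Fras1 was lower than control with radiation alone (-0.85 ± 0.19, adjusted p = 0.0108) and differed from control by 0.18 ± 0.19 with added SEW-2871 (-0.85 ± 0.20 and 0.18 ± 0.20 without control replicate 4), whereas Col8a1 was 0.66 ± 0.18 above control (adjusted p = 0.0741), and 0.87 ± 0.14 without control replicate 4 (adjusted p = 0.00165).

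Fibroblast and mesothelial genes moved in the same direction. Of 30 fibroblast and pericyte genes 4 were called, all higher, with a median of 0.19: Clec11a, a secreted growth factor of skeletal and stromal cells (0.90 ± 0.18, adjusted p = 0.0134), Tmem158 (0.90 ± 0.23), Gap43 and Dpt, which encodes the matrix protein dermatopontin (0.52 ± 0.12). Of 15 mesothelial genes 3 were called, all higher (1.38% of all genes were), with a median of 0.53. Of the 15, 11 lay higher without overlap (17.7% of all genes did). Aldh1a2, which makes retinoic acid in mesothelium, read 9.32, 9.48 and 9.34 with radiation and 10.17, 10.11 and 10.31 with added SEW-2871 (0.82 ± 0.18, adjusted p = 0.0217). Rspo1 and Gpm6a rose by 0.53 ± 0.10 and 0.48 ± 0.11. Rspo1 lay at 9.38 to 9.48 with added SEW-2871 against 8.83 to 8.98 with radiation, and Gpm6a at 10.77 to 11.06 against 10.23 to 10.53, both without overlap. Leaving out 1 array at a time kept 0 to 2 mesothelial and 0 or 1 fibroblast genes called.

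In the list of the transforming growth factor beta and bone morphogenetic protein pathways, 2 modulators rose and stayed called without each of the 6 arrays. Pmepa1, which restrains transforming growth factor beta signalling by binding its receptor Smads, read 10.44, 10.53 and 10.54 with radiation and 10.95, 10.89 and 10.91 with added SEW-2871, a difference of 0.42 ± 0.06 (adjusted p = 0.00288). The control arrays were at 10.80 to 10.93, so radiation alone lay below control (-0.39 ± 0.06, adjusted p = 0.000357, and -0.38 ± 0.06 without control replicate 4) and the radiation+SEW arrays within or just above its range. Chrdl1, an antagonist of bone morphogenetic proteins, read 7.99, 8.34 and 8.40 against 8.87, 9.12 and 8.95 (0.74 ± 0.12, adjusted p = 0.00423), with control at 8.55 to 8.90. Tgfbi, a matrix protein induced by transforming growth factor beta and abundant in macrophages, went down, from 11.80, 11.75 and 11.31 to 11.11, 11.01 and 11.15 (-0.53 ± 0.13, adjusted p = 0.0375). The whole list of 29 had a median of -0.08, 2 called higher and 1 lower. Of all genes, 1.38% were called higher and 1.11% lower. Plau, the urokinase that activates plasminogen, read 6.998, 6.98 and 6.96 against 8.06, 7.77 and 7.96 (0.95 ± 0.22, adjusted p = 0.0261), in a protease list of 21 where Mmp9 and the macrophage elastase Mmp12 (-1.22 ± 0.32, adjusted p = 0.0478) fell. Plau lost its call when any 1 of the 6 arrays was left out. Mmp12 lost its call in 13 of 19 alternatives, quantile normalization and median centring among them. C2, an early complement component, read 9.04, 8.56 and 8.65 against 9.43, 9.60 and 9.43 (0.74 ± 0.13, adjusted p = 0.00588), the one call among 17 complement genes.

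Among cholesterol synthesis genes 3 rose, and the others did not pass the test. Of 20 tested genes of synthesis and uptake 19 had a positive difference and the median was 0.31. Of the 20, 11 lay higher without overlap (17.7% of all genes did) and 3 were called higher (1.38% of all genes were). Dhcr7, which catalyses the last step of cholesterol synthesis, read 7.19, 7.27 and 7.77 with radiation and 8.25, 7.97 and 8.29 with added SEW-2871 (0.76 ± 0.17, adjusted p = 0.0239). Tm7sf2, a sterol reductase, read 7.50, 7.49 and 7.58 against 8.41, 8.19 and 8.13 (0.72 ± 0.16, adjusted p = 0.0231). Cyp51, the sterol demethylase, read 9.03, 9.49 and 9.75 against 9.94, 9.91 and 10.06 (0.54 ± 0.12, adjusted p = 0.0248). The control list means of 9.30 to 9.52 lay between radiation (9.20 to 9.41) and radiation+SEW (9.55 to 9.65), overlapping the first. Leaving out single arrays kept 0 to 3 of the list called.

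The starts of these 3 sterol genes are shown because sterol synthesis genes are known to move as a unit under SREBP factors, which work together with NF-Y and Sp1. The windows are the 200 bases before the first listed start in RefSeq (GRCm38.p6), and capitals mark CCAAT, the box read by NF-Y, its reverse complement ATTGG, and GGGCGG or CCGCCC, the GC box read by Sp1 (both strands searched).
Dhcr7 (chr7:143822967-143823166, plus strand): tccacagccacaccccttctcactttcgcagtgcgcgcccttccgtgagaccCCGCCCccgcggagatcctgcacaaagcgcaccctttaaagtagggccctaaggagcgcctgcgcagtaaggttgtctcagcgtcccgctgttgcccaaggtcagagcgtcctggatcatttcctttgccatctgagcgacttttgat
Tm7sf2 (chr19:6067851-6068050, minus strand): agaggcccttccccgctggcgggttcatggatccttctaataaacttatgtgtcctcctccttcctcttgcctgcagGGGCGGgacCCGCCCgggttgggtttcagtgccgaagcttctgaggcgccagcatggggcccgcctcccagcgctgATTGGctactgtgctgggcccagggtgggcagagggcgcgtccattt
Cyp51 (chr5:4104698-4104897, minus strand): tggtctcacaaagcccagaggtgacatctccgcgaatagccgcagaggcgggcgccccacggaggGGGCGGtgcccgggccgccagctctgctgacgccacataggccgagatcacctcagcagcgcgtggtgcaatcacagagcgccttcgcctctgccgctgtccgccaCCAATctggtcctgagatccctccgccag
A GC box is present in all 3 windows, and a CCAAT box in those of Tm7sf2 and Cyp51; of 3 starts listed for Dhcr7, 1 holds CCAAT. Of 16 list members with a window, 14 held CCAAT and 14 held GGGCGG, beside 29.3% and 31% of all 32851 windows. These shares describe the members of the pathway and not their change, since most members were not called.

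**Figure D4:**
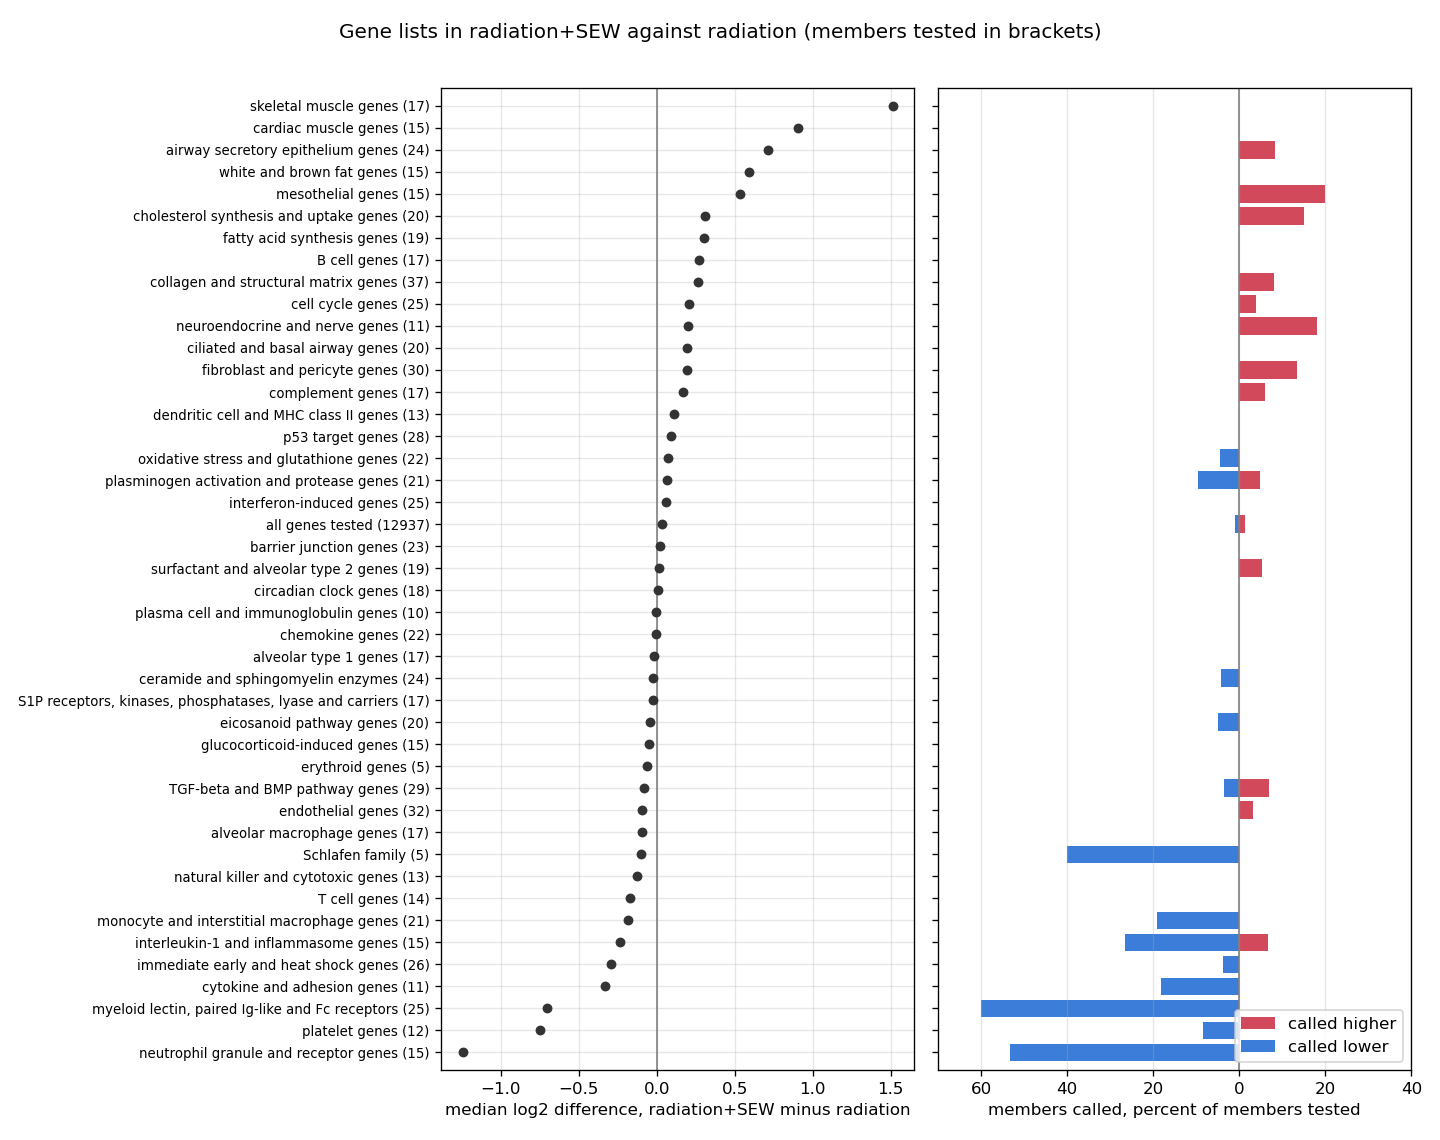
Gene lists with at least 5 tested members in the radiation+SEW against the radiation group: the left panel gives the median log2 difference of each list, the right panel the percent of tested members called higher (to the right) or lower (to the left), with the number tested in brackets. The neutrophil list has the lowest median (-1.24), and the skeletal muscle list has the highest (1.51) with no member called.

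The receptors and enzymes of sphingosine 1-phosphate itself did not change detectably. None of 17 tested genes was called, and the median was -0.03. S1pr1, the receptor that SEW-2871 activates, read 10.42, 9.99 and 10.47 with radiation and 10.29, 10.05 and 10.03 with added SEW-2871 (-0.17 ± 0.28, adjusted p = 0.793), inside the control range of 9.68 to 10.75. The highest S1pr1 levels of these groups were those of SEW-2871 without radiation, 10.83 to 11.003. S1pr2 differed by -0.10 ± 0.12, S1pr3 by 0.18 ± 0.10 and S1pr4 by -0.15 ± 0.17. The kinases Sphk1 and Sphk2 differed by -0.22 ± 0.19 and 0.01 ± 0.09, the lyase Sgpl1 by -0.03 ± 0.10, and the carriers Spns2 and Mfsd2b by -0.02 ± 0.11 and -0.09 ± 0.10. The largest differences were those of Plpp1, a lipid phosphate phosphatase (-0.41 ± 0.13, adjusted p = 0.097), and Sgpp2, a phosphatase specific for sphingosine 1-phosphate (0.40 ± 0.14, adjusted p = 0.142). In the neighbouring ceramide and sphingomyelin pathway 1 of 24 genes was called, lower (1.11% of all genes were). Cert1, which carries ceramide to the Golgi, read 11.36, 11.30 and 11.36 against 10.94, 11.12 and 11.06 (-0.30 ± 0.06, adjusted p = 0.0172), although 1 other probe set of the gene had the opposite sign.

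Few endothelial and junction genes, where S1pr1 acts, passed the test. Beside the counts of calls below, 1.38% of all genes were called higher and 1.11% lower. The median of 32 endothelial genes was -0.10; 13 lay lower and 6 higher without overlap, beside 9.38% and 17.7% of all genes, with differences from -0.75 to 0.74. Of these 32 endothelial genes 1 was called, Ednrb, the endothelin receptor that marks capillary aerocytes, which read 11.33, 11.50 and 11.55 with radiation and 11.78, 11.81 and 11.81 with added SEW-2871 (0.34 ± 0.07, adjusted p = 0.0134). Control arrays were at 11.67 to 11.86, above radiation (difference -0.30 ± 0.06, adjusted p = 0.00975, and -0.28 ± 0.07 without control replicate 4). Gpihbp1, the capillary anchor of lipoprotein lipase, read 11.85, 11.32 and 11.35 against 10.90, 10.83 and 10.56 and missed the threshold (-0.75 ± 0.20, adjusted p = 0.0539). Aplnr, the apelin receptor, differed by 0.74 ± 0.32 (adjusted p = 0.238) and Edn1, the precursor of endothelin-1, by -0.50 ± 0.22 (adjusted p = 0.251). No gene was called among 23 barrier junction genes (median 0.02). Cyclin D2 (Ccnd2) was the one call among 25 cell cycle genes, at 11.35, 11.38 and 11.40 against 11.69, 11.95 and 11.73 (0.41 ± 0.08, adjusted p = 0.0134). Jun, an immediate early transcription factor, was the one call among 26 immediate early and heat shock genes (-0.41 ± 0.09, adjusted p = 0.0166). No member was called among 19 fatty acid synthesis, 17 alveolar type 1, 25 interferon-induced, 15 glucocorticoid-induced or 18 circadian clock genes.

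Many genes responded to SEW-2871 differently after radiation than without it. The test of the difference, (radiation+SEW minus radiation) minus (SEW minus control), called 1797 genes (13.9%), 1356 with a positive and 441 with a negative value (3.41%). Without control replicate 4 it called 1770. The test contains the difference by which the genes named above were chosen and shares its arrays. For Clec4d the value was -2.36 ± 0.48 (adjusted p = 0.00418), and -2.57 ± 0.47 without control replicate 4: SEW-2871 alone read 7.46, 7.35 and 7.80, beside control at 7.08 to 8.10. For Csf3r it was -1.95 ± 0.68 and missed the threshold (adjusted p = 0.0598), while without control replicate 4 it was -2.29 ± 0.64 (adjusted p = 0.0254). Plau had a value of 1.70 ± 0.30 (adjusted p = 0.00195), and of 1.49 ± 0.25 without control replicate 4: SEW-2871 alone was below control (6.16 to 6.59 against 6.80 to 7.76) and SEW-2871 after radiation above radiation. Pmepa1 had 0.66 ± 0.08 (adjusted p = 0.00043) and Ednrb 0.60 ± 0.09 (adjusted p = 0.000971), again with SEW-2871 alone below control and the combination above radiation. Without control replicate 4 these were 0.64 ± 0.08 and 0.59 ± 0.10.

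Immunoglobulin genes led the negative values of that test, and their highest levels were in the unirradiated mice given SEW-2871. Jchain, which joins immunoglobulin A and M chains in plasma cells, read 12.25, 12.37 and 12.55 with SEW-2871 alone, 9.19 to 9.68 in control, 10.06 to 10.88 with radiation and 9.28 to 11.36 with both. The value was -3.34 ± 0.80 (adjusted p = 0.011; 0.0162 without control replicate 4), and the combination lay below SEW-2871 alone by 2.26 ± 0.59. Ighm, the mu heavy chain, read 12.64 to 12.91 with SEW-2871 alone and 9.89, 11.57 and 9.73 with both. Igkv5-39, a kappa variable segment, had the largest value, -3.73 ± 0.88 (adjusted p = 0.0103), and -3.75 ± 0.94 without that array. Its mean over all arrays, 6.64, was near the filter, and its high SEW arrays raised that mean. The place of Igkv5-39 at the head of the negative values is therefore no separate support. Many immunoglobulin segments share sequence, so the probe sets of single segments may read their relatives. Of 15 tested glucocorticoid-induced genes 4 were called with a negative value, also without control replicate 4. Fkbp5, a co-chaperone induced by glucocorticoids, read 10.56, 10.50 and 10.30 with SEW-2871 alone and 8.65, 8.48 and 8.72 with both. It read 9.75, 8.32, 7.75 and 8.35 in control and 10.63, 8.78 and 8.60 with radiation, so radiation replicate 1 was as high as the SEW arrays. The value was -2.63 ± 0.58 (adjusted p = 0.00702; 0.0118 without control replicate 4). SEW replicates 1 and 3 also had skeletal muscle means of 11.44 and 11.39 against 7.07 in replicate 2; their part in these results was not tested.

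SEW-2871 was compared at the same dose and schedule with the compounds built like sphingosine, in 2 pairs, with p adjusted over both pairs together. No gene passed in either pair (0%). Against radiation+fTyS 1414 genes had an unadjusted p under 0.05 and the smallest adjusted p was 0.105; against radiation+FTY the figures were 1036 and 0.164. The gene nearest the threshold against fTyS was Zfp53, a zinc finger gene, which read 8.80, 8.65 and 8.82 with radiation and fTyS and lay lower by 0.44 with SEW-2871 (95% interval -0.59 to -0.30, joint adjusted p = 0.105). Clk1 was next, at 11.45, 11.35 and 11.51 with fTyS and lower by 0.54 with SEW-2871 (-0.74 to -0.33, joint adjusted p = 0.164). Against FTY they were Scgb3a2, a club cell secretoglobin, higher with SEW-2871 by 0.16 (0.10 to 0.22), Azin1, a regulator of polyamine synthesis (0.30, 0.18 to 0.41), and Thbs3, a thrombospondin (0.58, 0.35 to 0.80), all with a joint adjusted p of 0.164.

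For the leukocyte genes the intervals leave room for sizeable differences between the compounds. Csf3r read 8.65, 7.86 and 7.96 with radiation and fTyS and 8.12, 9.09 and 9.80 with radiation and FTY. SEW-2871 minus fTyS was -0.85 (95% interval -1.88 to 0.18, joint adjusted p = 0.625) and SEW-2871 minus FTY was -1.70 (-2.73 to -0.67, joint adjusted p = 0.317). Mmp9 read 8.11, 8.18 and 7.78 with fTyS and 8.54, 8.95 and 9.34 with FTY; SEW-2871 minus FTY was -1.10 (-1.69 to -0.51, joint adjusted p = 0.272) and SEW-2871 minus fTyS was -0.19 (-0.78 to 0.40). For Clec4d the differences were -0.10 (-0.83 to 0.63) from fTyS and -0.90 (-1.63 to -0.16) from FTY. Gp2 was higher than with FTY by 1.43 (0.47 to 2.38, joint adjusted p = 0.34) and differed from fTyS by 0.46 (-0.50 to 1.42). The median difference over the neutrophil list was -0.07 from fTyS and -0.48 from FTY.

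Each compound was also set against the same 3 radiation arrays, so these values are not independent and are given side by side only. SEW-2871 had 321 called genes, fTyS 111 (0.858%; 0.417% higher and 0.441% lower) and FTY 391 (3.02%; 1.94% higher and 1.08% lower). Csf3r differed from radiation alone by -3.16 with SEW-2871, -2.31 with fTyS and -1.47 with FTY, and S100a9 by -2.71, -2.19 and -0.95. Of the 15 neutrophil genes 8 were called lower with SEW-2871, 4 with fTyS and 2 with FTY, and of the 25 myeloid receptors 15, 8 and 5. Pmepa1 was called higher with all 3 compounds, by 0.42, 0.45 and 0.35. In the mesothelial list 3 genes were called with SEW-2871, none with fTyS and 7 with FTY, and Aldh1a2 differed by 0.82, 0.48 and 0.97. Calcb differed by 1.81, 0.69 and 1.11, and Gp2 by 2.21, 1.75 and 0.78.

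**Figure D5:**
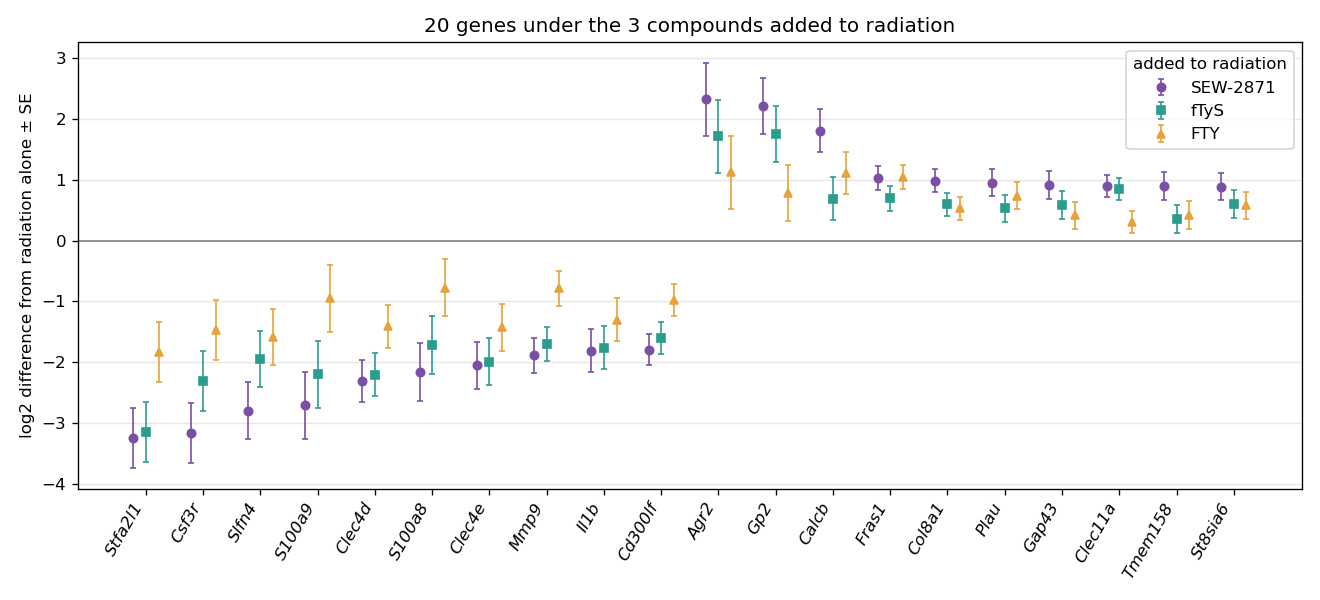
Log2 difference from radiation alone, with SE, for the 10 genes of largest decrease and the 10 of largest increase under SEW-2871 (circles), with the same genes under fTyS (squares) and FTY (triangles). The 3 series share the radiation arrays; Csf3r stands at -3.16, -2.31 and -1.47.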

How the data were processed

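Total lung RNA (6 ug per mouse, per the labels) was biotin-labelled and hybridised to Affymetrix mouse arrays. The authors deposited 1 linear signal intensity for every probe set of an array; per the submitters' processing notes GCOS was used, and its version, summary method and scaling target are not given in the sources used here. From these values log2(signal + 16) was taken, with no further normalization. Of 45101 probe sets, 34945 had a single gene symbol; those with several symbols (932), none (9160) and 64 controls were left out. For each of 18193 genes the probe set of highest mean was kept, and genes below the 40th percentile (6.49) were dropped, leaving 12937. The largest median log2 difference of a comparison was 0.0516. One limma 3.58.1 fit (R 4.3.3, lmFit on 8 group means with 17 residual degrees of freedom, trended eBayes, two-sided) served all comparisons, and was tested on simulated data. The labels give no batch. Replicate numbers did not pair the arrays, with residual correlations of -0.14, 0.13 and -0.06 for pairs 1 to 3. Named genes are the 20 called, non-overlapping genes of largest increase and of largest decrease, the 8 and 8 of the other comparisons or the 5 of smallest p where none was called, up to 6 called members and the 3 of largest change of each of 45 gene lists, and the S1P genes. Members, lists and rules were chosen with earlier results of these data known. Alternatives were quantile normalization, median centring, pseudocounts of 1 and 64, averaging a gene's probe sets, no filter or one at the 60th percentile, no trend, array weights, a replicate block, muscle and fat covariates, fits restricted to the groups compared, and omission of single arrays; muscle, fat and basal airway covariates and leaving out control replicate 4 in all comparisons were added after seeing the data.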

Additional observations from a re-analysis of the deposited data

Results flagged for a closer look

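In the control group of 4 arrays, 7 of the 45 list means had 1 array standing apart by Dixon's ratio of the gap to the range above the 95% critical value for 4 samples; chance gives about 1 in 20. The ratios were 0.9412 for skeletal muscle genes and 0.8744 for ciliated and basal airway genes, both with replicate 2 apart, 0.8514 for p53 target genes with replicate 4 apart, 0.9188 for mast cell, basophil and eosinophil genes, 0.8603 for plasminogen activation and protease genes, 0.8765 for transforming growth factor beta and bone morphogenetic protein genes, and 0.8477 for complement genes.

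With all 4 control arrays in the fit, the effect of SEW-2871 after radiation differed from its effect without radiation by the test of that difference for 1797 genes. Among the genes with the largest increases after radiation the differences between the 2 effects were, in log2 units, 2.80 for Agr2, 2.30 for Gp2, 1.99 for Calcb, 1.71 for Fras1, 1.70 for Plau, 1.44 for Col8a1, 1.20 for Clec11a, 1.18 for Tmem158, 1.14 for Itih4, 1.10 for Lgi2, 1.09 for Dhcr7, 1.07 for Gap43, 1.05 for Rspo3 (1 other probe set of which had the opposite sign), 0.96 for Fcrls, 0.92 for Clec4g, 0.72 for Chrdl1 and 0.63 for C2. Among the largest decreases they were -2.78 for Stfa2l1, -2.36 for Clec4d, -2.15 for Wfdc17, -1.99 for Pla2g7, -1.93 for Clec4e, -1.92 for Slfn4, -1.68 for Mmp9, -1.66 for Sirpb1a, -1.60 for Emilin2, -1.52 for Igsf6, -1.47 for Pirb, -1.36 for Ifitm6, -1.25 for Ccr1 and -1.17 for Cd300lf. Genes named for this test alone were Prdm8 (2.25), A330076H08Rik (1.84) and D430019H16Rik (1.71), and the immunoglobulin genes Igkv5-39 (-3.73), Iglv1 (-3.42), Jchain (-3.34), Igkv9-120 (-3.27), Igkv6-14 (-3.08), Igkv8-30 (-2.92) and Igkv4-68 (-2.73). The means of Igkv5-39 and Igkv6-14 over all arrays, 6.64 and 6.51, were near the filter, and their high SEW arrays raised them. Both genes are therefore no separate support.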

How the results depend on the processing

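Of 72 called genes of the main comparison that are named, none changed sign under any alternative. Of these, 18 stayed called without each of the 6 arrays and 9 under every alternative that tested them. Of 45 gene lists, 22 had a median that changed sign under some alternative. For radiation+SEW against radiation (321 calls), array weights gave 1444, a fit of only the arrays compared gave 102, muscle, fat and basal airway covariates (chosen after seeing the data) gave 197, and leaving out 1 array gave 49 to 257, or 349 for control replicate 4. Against control (30 calls), quantile normalization gave 118, a pseudocount of 64 gave 65, no filter 13, averaging a gene's probe sets 191, a filter at the 60th percentile 99, array weights 945, muscle and fat covariates 159, only the arrays compared 0 and the replicate block 702; leaving out 1 array gave 0 to 703, with 16, 1, 0 and 703 without control replicates 1 to 4 and 3, 0 and 0 without radiation+SEW replicates 1 to 3. The interaction (1797 calls) gave 3366 with array weights and 888 to 2093 without 1 array, with 888 without radiation+SEW replicate 3, 1126 without SEW replicate 1 and 1140 without radiation replicate 1. Against radiation+fTyS (0 calls), a pseudocount of 64, a filter at the 60th percentile and no trend each gave 1, muscle and fat covariates 2 and array weights 1101; leaving out 1 array gave 0 to 4, with 4 without radiation+fTyS replicate 2. Against radiation+FTY (0 calls), no filter gave 1, array weights 4 and muscle and fat covariates 5; leaving out 1 array gave 0 to 4, with 4 without radiation+FTY replicate 2. A fit of only the arrays compared has fewer residual degrees of freedom. Only the control group has a replicate 4, so the replicate block gave that array a term of its own. That array then no longer informed the comparison with control, where the block gave 702 calls and omission of the array gave 703. The cause of the other shifts was not tested. In the main comparison the block gave 308 calls and in the interaction 1781. The replicate numbers do not pair the arrays, and the block changed the count by over 1.5 times only against control. Array weights give arrays unequal say and were used for no statement beyond these counts of calls kept. No depth is known for these arrays, and genes near background are compressed by the added 16.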

Other observations

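Genes of heart muscle were carried by several arrays. Their list mean was 9.01, 10.32 and 10.11 in the radiation arrays and 10.93, 11.41 and 9.87 in the radiation+SEW arrays, and Nppa, the atrial natriuretic peptide of atrial muscle and of the sleeves of the pulmonary veins, read 7.96, 11.02 and 10.68 against 11.63, 13.17 and 10.37. Brown fat was uneven too: Ucp1, its uncoupling protein, read 4.91, 7.08 and 4.91 with radiation and 5.02, 10.42 and 7.04 with added SEW-2871. None of these genes was called.

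Immediate early genes were uneven within the radiation group. Their list mean was 10.52 in replicate 1 and 11.19 in replicates 2 and 3, beside 10.64 to 10.72 in the radiation+SEW arrays. Hspa1a, an inducible heat shock protein, read 8.73, 10.76 and 11.33 with radiation and 9.60, 9.53 and 8.86 with added SEW-2871 (-0.94 ± 0.49, adjusted p = 0.334 in limma).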
